A study of Mus musculus with 22 samples.

Results

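The cytosolic ribosomal protein genes were taken from the count table by symbol, as every row that begins with Rpl or Rps and a number, or with Rplp0, Rplp1 or Rplp2, without the S6 kinase genes (Rps6k). The rule found 78 of 13685 genes, 44 with large-subunit (60S) symbols and 34 with small-subunit (40S) symbols. Most code for ribosomal proteins, but Rps19bp1 is a nuclear protein that binds RPS19, Rpl7l1 is a ribosome biogenesis factor related to RPL7, and 3 symbols (Rps4y2, Rps19-ps3 and Rps15a-ps4) are annotated as processed pseudogenes.

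Drop-seq, which captures single cells with barcoded beads in droplets and reads the 3' end of each cDNA, was run on the hippocampus of 22 mice with the strain label Fvb/B6. The 6 groups were 5 old WT mice (32 to 40 weeks), 4 old rTg4510 (32 to 38 weeks), 4 young WT (5 to 6 weeks), 3 young rTg4510 (4 to 5 weeks), 3 old P301L (41 to 48 weeks) and 3 old rTta (33 weeks), and WT stands for littermates negative for both transgenes. The rTg4510 line overexpresses human tau with the mutation P301L in forebrain neurons, from a tetracycline-responsive transgene that needs a transactivator driven by Camk2a. The names P301L and rTta point to animals with only the tau responder and only the transactivator, though no label gives their alleles. The P301L mice were older than every other animal, so age and genotype cannot be told apart in their comparisons, and each genotype of young mice covers a range of ages shifted by a week.

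A ribosome joins a small subunit, which reads the mRNA, to a large subunit, which forms the peptide bond. Each ribosomal protein is needed in about equal amounts, and their mRNAs are among the most abundant in most cells. They start with a pyrimidine tract (the 5' terminal oligopyrimidine, or TOP, motif) through which mTOR sets their translation. The mouse genome holds large numbers of processed pseudogenes of these genes, which are intronless copies of the mRNA that can be nearly identical to it.

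Depth and structure of the table set what could be tested. An animal's total was 780831 to 6039656 counts. At least 300 counts were held by 27198 of 30500 barcodes, and the animals' medians over these were 638 to 2021. No label names parts of the table, but 270 genes were at 0 in every P301L and rTta animal and 801 in every WT and rTg4510 animal. These 2 sets of animals are therefore treated as 2 parts of the table, which is an inference from the zeros. Among the 78 genes, 75 were counted in both parts. Rpl10a was at 0 in P301L and rTta, and Rpl24 and Rps15a-ps4 were at 0 in WT and rTg4510, so these 3 were left out of all tests. Old P301L replicate 3 and old rTta replicate 3 shared 176 kept barcodes, against at most 2 for any other of the 231 pairs of animals. Of these 176 barcodes, 171 fell in the same cell class in both animals, and their total counts had a Spearman correlation of 0.99 across barcodes. Results that involve these 2 animals are therefore also given without them or without the shared barcodes.

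Classes of cells were built from clusters made without the 78 genes, and named from markers. The named classes held 22851 cells. Their leading types were 5511 excitatory neurons, 3931 oligodendrocytes, 3328 astrocytes, 2794 microglia, 1983 endothelial cells, 1842 oligodendrocyte precursors, 1303 interneurons and 746 mural cells. The 4347 unnamed cells were 21.6% ± 12.8 (SD, n = 5) of an old WT animal's cells on average, 12.8% ± 9.27 (n = 4) of old rTg4510, 12.0% ± 6.54 (n = 4) of young WT, 11.1% ± 11.2 (n = 3) of young rTg4510, 18.2% ± 4.17 (n = 3) of P301L and 23.4% ± 2.40 (n = 3) of rTta.

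The sequences bear on the measurement first. The last 300 coding bases of each gene were searched against the transcripts of the GENCODE annotation of GRCm38, the build that the labels call mm10, for other genes with at least 95% identity over at least 100 bases. Rpl3 (chr15:80077791-80091868) had 8 such copies, of which the pseudogene Rpl3-ps1 (chrX:13202571-13203780) was identical over the whole 300 bases. Rps2 (chr17:24718116-24721929) had 44, and the closest, an intronless copy at chr17:31643898-31644779, was 99.7% identical. Rps18 (chr17:33951999-33956001) had 7, with Gm11361 (chr13:28257528-28258134) at 99.3%, and Rpl35a (chr16:33056453-33060189) had 14, with Gm10243 (chr6:48523518-48523850) at 99.7%. The last 60 coding bases of the gene and of that copy are shown for those genes whose levels differed most between animals or groups, all in lower case since no base differed between gene and copy. Each copy was the best match of a restricted set. It had to align on the sense strand and reach the last coding base without a gap in the bases shown. Copies on a single chromosome were left out of this choice.
Rpl3: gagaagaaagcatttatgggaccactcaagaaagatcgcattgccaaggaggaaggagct
Rpl3-ps1: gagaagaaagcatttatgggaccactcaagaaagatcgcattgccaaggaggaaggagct
Rps2: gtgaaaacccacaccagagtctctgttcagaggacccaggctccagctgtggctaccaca
Rps2 copy: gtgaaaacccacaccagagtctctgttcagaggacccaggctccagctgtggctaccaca
Rps18: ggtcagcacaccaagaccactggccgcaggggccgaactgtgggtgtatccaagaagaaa
Gm11361: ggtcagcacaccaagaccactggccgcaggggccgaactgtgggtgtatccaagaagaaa
Rpl35a: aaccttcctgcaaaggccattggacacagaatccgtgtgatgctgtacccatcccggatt
Gm10243: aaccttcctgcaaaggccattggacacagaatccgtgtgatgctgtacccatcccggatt
A read from such a stretch fits both loci, and the handling of reads with more than 1 position is not given in the sources used here.

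The level of a ribosomal protein gene in this table went with its number of copies. Levels are CPM, a gene's share of the counts of an animal's kept barcodes scaled to a fixed total, which needs no correction for length in a 3'-end assay. Across the 71 genes for ribosomal proteins counted in both parts, mean CPM over the 22 animals and number of copies had a Spearman correlation of -0.68. These genes share libraries and scaling, so this is a description. The 31 genes with 0 to 4 copies had a median of 346.6 CPM, and the 40 with 5 or more copies a median of 27.5 CPM. Of the 25 genes with at least 1 fully identical copy, 20 were under 50 CPM, against 8 of the 46 without one. The highest were Rplp1 (a protein of the acidic stalk that recruits elongation factors) at 944.6 CPM and Rpl13a (an outer protein of the large subunit) at 886.2 CPM. Rps28, a small protein of the small subunit, was the lowest at 3.81 CPM. Ribosomal proteins are needed in near-equal amounts, but these CPM values spanned 3.81 to 944.6, and levels of different genes in this table are therefore not compared further. Rps27, Rpl3l and Rpl39l, the partners of Rps27l, Rpl3 and Rpl39, had no row under these symbols among the genes that the rule found. The same holds for Rpl26, Rpl28, Rpl29, Rpl30 and Rpl34, so the genes described here are not the full set of ribosomal protein genes.

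**Figure D1:**
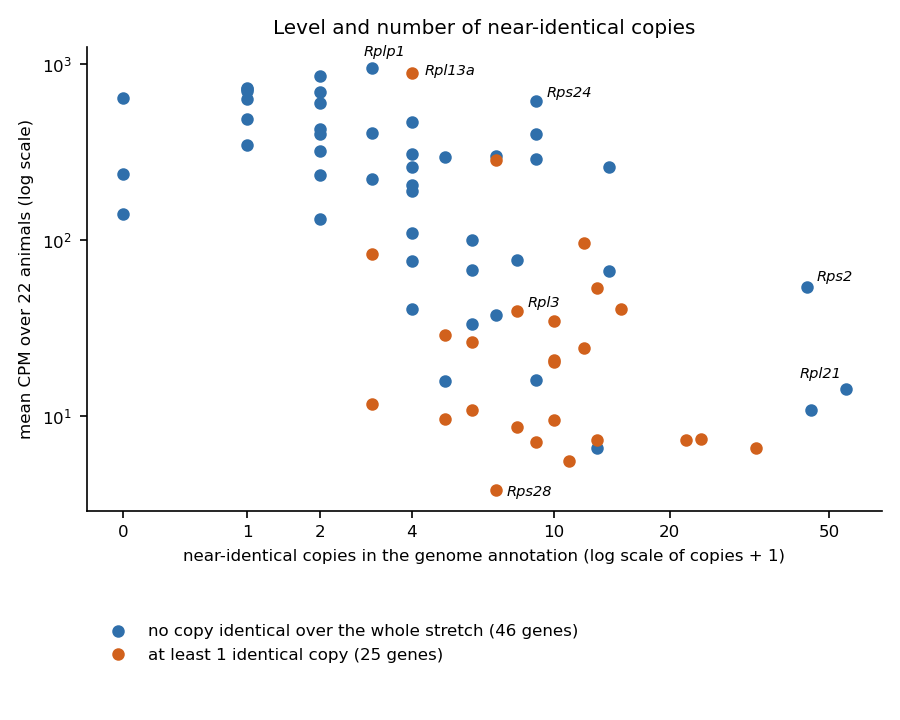
Mean CPM over 22 animals (vertical axis, log scale) against the number of near-identical copies (horizontal axis, log scale of copies + 1) for 71 ribosomal protein genes, each a point. Genes with a fully identical copy lie mostly under 50 CPM (20 of 25), and of the 46 others 8 do.

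The TOP motif was looked for at the transcription starts that RefSeq gives for 57 of the 78 genes (build GRCm38.p6), on the sense strand, as a C at the start base followed by at least 4 bases that are each C or T. It was there in 10 of 57 (17.5%), against 673 of the 27025 genes for which that RefSeq set gives a start (2.49%). A run of a C and 5 such bases lying within the 10 bases before and the 10 from the start was found in 25 of 57 (43.9%), against 4080 of 27025 (15.1%). The 25 bases before and 15 from the start are shown for a stalk protein gene and a small-subunit gene with the tract, in capitals, and for the paralog Rps27l and the non-ribosomal Rps19bp1, where the start base begins no such run. Rps27l held a run in the wider window and Rps19bp1 did not.
Rplp2, chr7:141447626-141447665, plus strand: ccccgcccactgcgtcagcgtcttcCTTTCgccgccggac
Rps18, chr17:33955651-33955690, minus strand: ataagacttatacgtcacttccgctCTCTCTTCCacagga
Rps27l, chr9:66946061-66946100, plus strand: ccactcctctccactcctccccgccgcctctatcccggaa
Rps19bp1, chr15:80264292-80264331, minus strand: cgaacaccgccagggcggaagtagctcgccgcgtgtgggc
A missing run says only that these letters are not at the annotated start.

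The 78 genes together took 1.05% to 2.39% of an animal's counts. By animal, the share was 1.75%, 2.09%, 1.11%, 2.00% and 1.61% in old WT and 2.39%, 1.67%, 1.53% and 1.48% in old rTg4510. It was 1.33%, 1.05%, 1.66% and 1.26% in young WT, 1.70%, 1.19% and 1.05% in young rTg4510, 1.35%, 1.74% and 2.16% in P301L, and 1.66%, 1.65% and 1.88% in rTta. All 6 groups overlapped, and the group means lay between 1.32% ± 0.339 (SD, n = 3, young rTg4510) and 1.77% ± 0.426 (n = 4, old rTg4510). The 4 old groups had means of 1.71% to 1.77% and the 2 young groups 1.32% each.

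**Figure D2:**
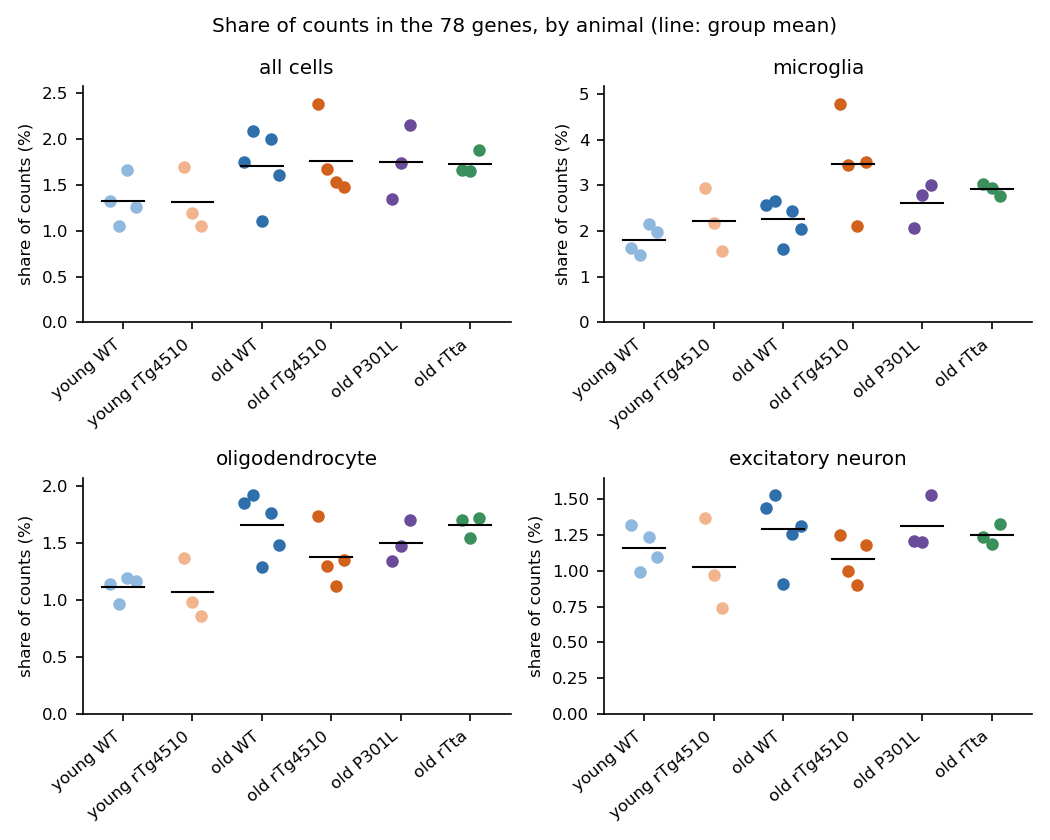
Share of an animal's counts in the 78 genes (vertical axis, percent) by group for all cells, microglia, oligodendrocytes and excitatory neurons, with 1 point per animal and a line at the group mean. In all cells the groups overlap, in microglia the old rTg4510 animals reach 4.79%, and in oligodendrocytes every old WT animal lies above every young WT animal.

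The share of these genes differed by cell class. Microglia, the brain's resident macrophages, gave 2.53% ± 0.779 (SD, n = 22 animals) of their counts to the 78 genes, and endothelial cells 2.60% ± 0.483 (n = 22). Mural cells stood at 1.85% ± 0.310 (n = 18), oligodendrocyte precursors at 1.61% ± 0.291, oligodendrocytes at 1.41% ± 0.306 and astrocytes at 1.35% ± 0.282 (n = 22 each). Neurons were lowest, with 1.19% ± 0.206 in excitatory neurons (n = 22) and 0.994% ± 0.202 in interneurons (n = 19). Neighbours in this order lay within each other's spread, while microglia and interneurons did not overlap within 1 SD. Cells of the low classes also held more counts: the median per cell was 1700 to 2431 in the 3 excitatory neuron clusters, 1070 in microglia and 967 in endothelial cells. Within astrocytes the cluster with a median of 614 counts per cell gave 1.87% ± 0.478 (n = 20) to these genes and the one with 1400.5 gave 1.24% ± 0.287 (n = 21). Precursors had the other order, with 1.69% ± 0.357 (n = 5) at a median of 1823 and 1.55% ± 0.27 (n = 20) at 1144. Choroid plexus cells, with a median of 3703, gave 1.82% ± 0.292 (n = 5). The part of depth in the class differences was not tested.

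Gene by gene, each of 7 classes was compared with the mean of the other 6, with animal as a term. This fit tested 51 of the 78 genes, those with enough counts. A call is a Benjamini-Hochberg adjusted p under 0.05 in edgeR's quasi-likelihood test over 6869 genes. In microglia 48 of 51 were called higher and none lower, with a median log2 fold change of 0.93, where 30.9% of all genes were called higher, 29.2% lower, and their median was -0.04. Endothelial cells had 46 higher (31.6% of all genes), none lower (29.6%) and a median of 0.74 (-0.02 over all genes). In excitatory neurons 46 were lower (45.5% of all genes) and 2 higher (36.9% of all genes), with a median of -0.76 against -0.11. Of the other classes, oligodendrocyte precursors had 36 lower and 4 higher (29.0% and 29.1% of all genes), astrocytes 30 lower and 1 higher (34.9% and 29.2%), oligodendrocytes 24 lower and 4 higher (40.1% and 33.7%), and mural cells 10 lower and 3 higher (24.8% and 14.1%). In the 5 old WT animals alone 48 genes were tested. The medians there were 0.44 in microglia, 0.62 in endothelial cells and -0.63 in excitatory neurons, and the mural and oligodendrocyte medians turned to 0.07 and 0.02.

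Both subunits had similar medians in these contrasts. In microglia the median was 0.93 over 22 small-subunit genes and 0.94 over 29 large-subunit genes, and in excitatory neurons -0.77 and -0.71. All 3 stalk protein genes, Rplp0, Rplp1 and Rplp2, were higher in microglia (log2 1.20 ± 0.08 SE, 1.30 ± 0.07 and 1.17 ± 0.08) and in endothelial cells (0.59 ± 0.08, 0.51 ± 0.07 and 0.60 ± 0.08), and lower in excitatory neurons (-1.29 ± 0.08, -0.69 ± 0.07 and -0.88 ± 0.08). Among the largest microglial contrasts were those of Rps9 (1.42 ± 0.07) and Rps4x (1.36 ± 0.15), which both code for proteins of the small subunit. Both tested ribosomal protein genes outside the symbol rule, one of them Gnb2l1 (RACK1, a scaffold on the small subunit), were higher in microglia, with a median of 1.12. Translation factors with TOP mRNAs went the same way, with 13 of 15 tested higher and 1 lower in microglia (median 0.62), and 11 lower and 3 higher in excitatory neurons (median -0.43). Mitochondrial ribosomal protein genes did not: 29 of 65 were lower and 3 higher in microglia (median -0.26), and 17 were lower and 22 higher in excitatory neurons (median 0.00).

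A few of the 51 genes went their own way, and 3 of them are paralogs or copies of the others. Rps27l, whose protein closely resembles RPS27 and whose gene is a p53 target, was at 60.8 ± 13.8 CPM (SD, n = 5) in excitatory neurons, 84.3 ± 47.9 in microglia and 256.4 ± 77.8 in endothelial cells of old WT animals. It had the largest fall in excitatory neurons (log2 -1.85 ± 0.09 SE, adjusted p = 7.75e-43) and, unlike the stalk genes, was not called in microglia (-0.19 ± 0.11). In oligodendrocyte precursors it was called higher (0.37 ± 0.10, adjusted p = 7.48e-04). Rpl22l1, the paralog that can take the place of RPL22, had 230.1 ± 29.5 CPM in excitatory neurons of old WT and 126.4 ± 40.1 in oligodendrocytes (n = 5 each). It was higher in excitatory neurons (0.32 ± 0.07), where Rpl22 itself was lower (-1.24 ± 0.09). In oligodendrocytes Rpl22l1 had the largest fall of the genes (-0.65 ± 0.09) while Rpl22 was not called (-0.08 ± 0.08). The third, Rps4y2 (the gene now named Rps4l, an intronless copy of Rps4x), was higher in endothelial cells (1.53 ± 0.18) and mural cells (1.34 ± 0.28) and lower in oligodendrocyte precursors (-1.80 ± 0.28), but it held few counts (39.4 ± 20.6 CPM in old WT endothelial cells).

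Rpl13, a large-subunit protein gene, had the largest rise of the 4 genes called higher in oligodendrocyte precursors, the others being Rps27l, Rps19bp1 and Rpl7l1. It reached 872.4 ± 273.1 CPM there in old WT animals (SD, n = 5), against 227.9 ± 56.3 in oligodendrocytes, 393.0 ± 101.6 in microglia and 182.5 ± 50.7 in excitatory neurons. Its contrast in precursors was 1.14 ± 0.07 (adjusted p = 3.28e-32), where the median of the 51 genes was -0.39. Rps19bp1, which is no ribosomal protein, did not share the common pattern: it was called higher in astrocytes (0.26 ± 0.11), excitatory neurons (0.24 ± 0.09) and precursors (0.45 ± 0.12), lower in mural cells (-0.95 ± 0.23) and not in microglia (0.09 ± 0.13). Rpl7l1 was higher in precursors too (0.45 ± 0.12) and in microglia (0.51 ± 0.13). Of the pair Rpl36a and Rpl36al only Rpl36al had enough counts for these contrasts, and it was higher in microglia (0.55 ± 0.10).

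**Figure D3:**
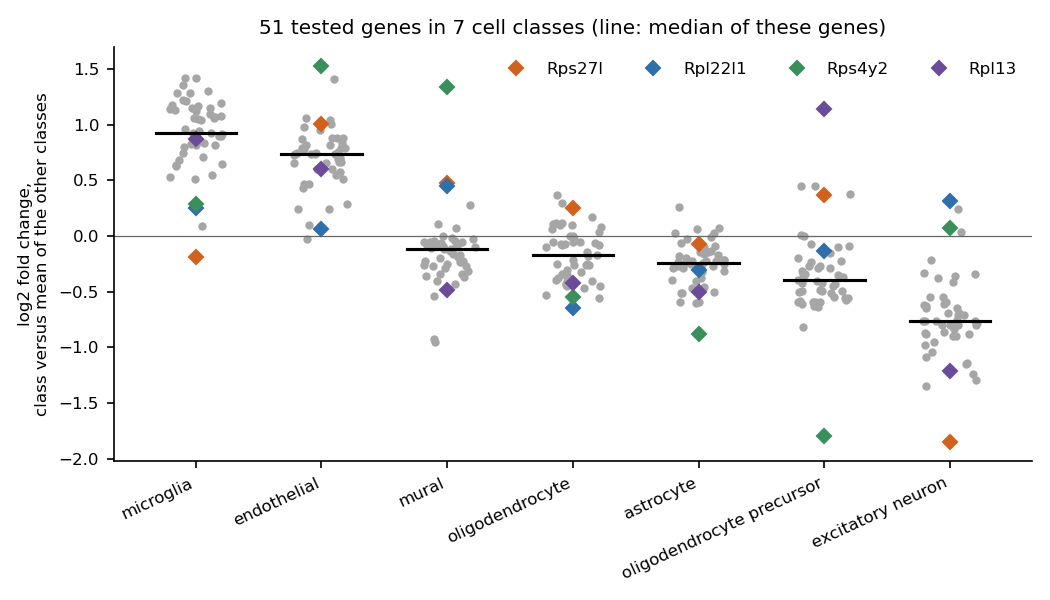
Log2 fold change of each class against the mean of the other 6 classes (vertical axis) for the 51 tested genes (grey points, with a line at their median) in 7 classes, with Rps27l, Rpl22l1, Rps4y2 and Rpl13 as coloured diamonds. The medians run from 0.93 in microglia to -0.76 in excitatory neurons, while Rps27l falls below 0 in microglia and Rpl13 stands at 1.14 in oligodendrocyte precursors.

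Old rTg4510 was compared with old WT, which lack both transgenes, so tau and the transactivator cannot be told apart in this comparison. Summed over all cells, none of the 75 tested genes was called (edgeR, 0.185% of 12414 genes called), and DESeq2 called none. An unadjusted p under 0.05 in edgeR was held by 1 of the 75 and by 1052 of the 12414 genes. Of the 75, 37 had a log2 fold change above 0, and the median was 0.00. Young rTg4510 against young WT gave no call either, by edgeR or DESeq2 (0.0% of all genes by edgeR), and the median was -0.14. There 2 of the 75 had an unadjusted p under 0.05, against 434 of 12414 over all genes. In bulk sums like these, fewer cells of a type and less RNA per cell cannot be told apart.

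Within microglia some genes were called. Of 49 genes tested, 6 were higher in old rTg4510 than in old WT and none lower, where 3.30% of 4299 genes were called (2.63% higher). The 43 genes with a positive change and the median of 0.77 compare with 47.2% positive and a median of -0.04 over all genes. Among the 6 were Rpl22 (log2 1.26 ± 0.30 SE, adjusted p = 0.00741), Rplp2 (1.22 ± 0.35, 0.0425), Rpl23 (1.19 ± 0.31, 0.0189), Rpl32 (1.00 ± 0.29, 0.0366) and Rps3 (0.98 ± 0.28, 0.0382). The first 4 of these code for proteins of the large subunit, with RPLP2 in its stalk, and RPS3 sits at the mRNA channel of the small subunit.

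Rpl22, an RNA-binding protein of the large subunit, read 594.4, 691.4, 239.9, 359.8 and 444.1 CPM in the microglia of the 5 old WT animals and 1319.8, 1079.3, 470.6 and 974.6 in those of the 4 old rTg4510 animals. Here old rTg4510 replicate 3 lay among the WT animals. Rplp2 showed the same overlap, with 948.7, 871.7, 215.9, 711.8 and 621.8 CPM in old WT and 2054.2, 1423.4, 659.9 and 1388.5 in old rTg4510. Rps3 did not overlap (811.6 to 1079.5 CPM in old WT and 1244.1 to 1872.6 in old rTg4510), while Rpl23 and Rpl32 did. The lowest changes among the 49 were those of Rpl35a (-1.72 ± 0.80), Rps19bp1 (-0.31 ± 0.39) and Rps2 (-0.28 ± 0.58), none of them called.

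**Figure D4:**
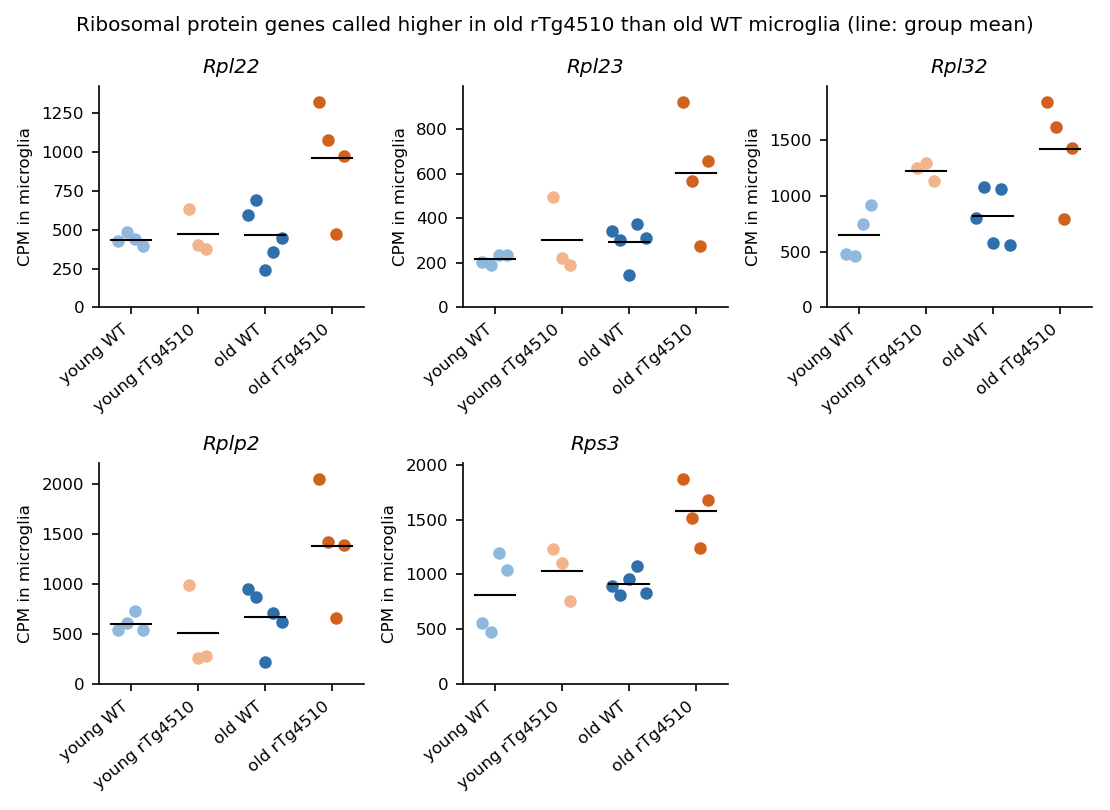
CPM in microglia (vertical axes) of Rpl22, Rpl23, Rpl32, Rplp2 and Rps3, called higher in old rTg4510 than in old WT, by animal in the 4 WT and rTg4510 groups, with a line at the group mean. Rps3 separates old rTg4510 from old WT fully, while for the others old rTg4510 replicate 3 lies among the WT animals.

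The share of microglial counts in all 78 genes was 2.56%, 2.65%, 1.61%, 2.43% and 2.05% in old WT and 4.79%, 3.45%, 2.10% and 3.50% in old rTg4510, so that 3 of 4 rTg4510 animals lay above every WT animal. In rTta the share was 3.02%, 2.95% and 2.77%, above every old WT animal, and in P301L 2.07%, 2.79% and 3.01%. Against old WT, 36 of 49 genes had a positive change in rTta microglia (median 0.36) and 37 of 49 in P301L (median 0.29). Both of these comparisons also compare the parts of the table. The part of tau expression in the microglial rise was not tested. Single animals set the number of calls in old rTg4510 against old WT. Shares over all genes under these alternatives are not given here, so the counts describe only how stable the calls were. Without old rTg4510 replicate 1 only 1 gene was called, without replicate 2 there were 3, and without replicate 3 there were 20. Without old WT replicate 3 there were 2 and without old WT replicate 5 there were 3. Scaling by library size alone, which moved the median of all microglial genes to -0.25, left 2 calls and a median of 0.52. Rpl22 was called under 19 of 20 alternatives. The difference between the genotype effects at both ages (the interaction) was called for none of these genes in any class by edgeR or DESeq2. In microglia, though, DESeq2 gave no adjusted p for 13 of the 49 genes in this contrast. In microglia it had a median of 0.51 over 49 genes (0.07 over all genes, 0.0930% of them called), and 0.15 with library size alone. Of the 49, 4 had an unadjusted p under 0.05, against 515 of 4299 over all genes. In mural cells the interaction was negative for 31 of 35 genes, with a median of -0.50 (-0.02 over all genes, 0.0% of them called). There 6 of 35 had an unadjusted p under 0.05, against 140 of 1337 over all genes.

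In the same comparison 3 of 15 tested translation factors and other TOP mRNAs were higher: Eef1a1, the elongation factor that brings aminoacyl-tRNA (0.94 ± 0.28, adjusted p = 0.0499), Eif3e, an initiation factor subunit (1.15 ± 0.30, 0.0185) and Npm1, a nucleolar chaperone of ribosome assembly (1.16 ± 0.29, 0.0134). All 15 had a positive change and their median was 0.66. Gnb2l1, outside the symbol rule, rose as well (1.30 ± 0.27, 0.00252). None of 11 ribosome biogenesis genes (median 0.30), 5 mTOR pathway genes (median -0.39) and 36 mitochondrial ribosomal protein genes (median 0.04) was called. The microglial markers summed to 23396 to 39378 CPM in old WT and 29035 to 55016 in old rTg4510, and the markers of any neuron to 2842 to 8628 and 1547 to 9909. Astrocyte markers summed to 2517 to 7335 CPM and 2575 to 7675, and markers of other immune or blood cells to 96.0 to 240.5 and 471.6 to 798.7. The part of these in the result was not tested. The microglia of an animal numbered 26 to 173 in old WT and 103 to 371 in old rTg4510, with 828 to 1239 and 1009 to 1713 median counts per cell.

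In neurons, oligodendrocytes and mural cells no gene was called in old rTg4510 against old WT, and the changes leaned down. In excitatory neurons, the cells in which the transactivator is active, 58 of 65 tested genes had a negative log2 fold change. The median was -0.24 (-0.02 over all genes, 0.130% of them called). An unadjusted p under 0.05 was held by 9 of the 65 and by 680 of 9228 over all genes. In interneurons 42 of 46 were negative (median -0.41), and in oligodendrocytes 47 of 53 (median -0.33), with 0.0404% and 0.175% of all genes called. In each, 9 had an unadjusted p under 0.05, against 285 of 4956 and 372 of 5723 over all genes. By animal, the share in excitatory neurons was 1.44%, 1.53%, 0.91%, 1.26% and 1.31% in old WT and 1.25%, 1.00%, 0.90% and 1.18% in old rTg4510, and the groups overlapped. In mural cells 28 of 35 were negative (median -0.39, 0.0% of all genes called), and 4 had an unadjusted p under 0.05 (147 of 1337 over all genes). The 3 old WT animals with at least 20 mural cells gave 2.21%, 2.2% and 2.43% of those counts to the 78 genes and the 3 old rTg4510 animals 1.95%, 1.55% and 1.68%, without overlap. DESeq2 called none of these genes in any of these 4 classes. Endothelial cells (33 of 49 negative, median -0.04) and precursors (31 of 47, -0.14) leaned down too, but astrocytes did not (21 of 50, 0.05). The lean was not limited to old animals. In young rTg4510 against young WT, 49 of 65 were negative in excitatory neurons (median -0.31) and 34 of 46 in interneurons (-0.33). In oligodendrocytes 35 of 53 were (-0.20), but in mural cells only 11 of 35 (0.15). Negative changes were held by 30 of 50 genes in astrocytes (-0.08), 22 of 49 in endothelial cells (0.06) and 21 of 47 in precursors (0.03).

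Age was addressed by old against young animals within a genotype. Over all cells no gene was called in WT (0.0% of 12414 genes) or in rTg4510 (0.161%), by edgeR or DESeq2. An unadjusted p under 0.05 was held by 5 and 11 of the 75, and by 616 and 976 of the 12414 genes. Yet 66 of 75 genes were higher in old than in young WT, with a median of 0.33, and 71 of 75 in rTg4510, with a median of 0.42, whereas 47.1% and 54.8% of all genes were. The median over all genes was -0.02 and 0.03. With a term for the range of animal numbers in the titles, the nearest thing to a cohort in the labels, 55 of 75 genes were higher in old WT (median 0.20) and 58 of 75 in old rTg4510 (median 0.47). Both subunits leaned up in WT (31 of 33 small-subunit and 35 of 42 large-subunit genes), as did 13 of 16 translation factors and other TOP mRNAs (median 0.21), but not mitochondrial ribosomal protein genes (38 of 74, median 0.00) or ribosome biogenesis genes (9 of 20, median -0.03).

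Oligodendrocytes, the myelinating cells, carried calls with age. Of 53 genes tested 3 were higher in old than in young WT and none lower, where 3.83% of 5723 genes were called (2.06% higher). 52 of 53 had a positive change, with a median of 0.61 against 0.03 over all genes. Rps19, a small-subunit protein needed for 18S rRNA maturation, read 376.7, 422.0, 300.7, 503.6 and 351.5 CPM in the 5 old WT animals and 213.3, 130.5, 152.0 and 174.4 in the 4 young WT animals (log2 1.22 ± 0.24 SE, adjusted p = 0.00146). Rpl37, a zinc-finger protein of the large subunit, read 352.3, 709.5, 263.6, 372.8 and 251.1 CPM against 234.6, 177.4, 107.8 and 161.0 (1.23 ± 0.33, 0.0349). Rpl22l1 read 92.1, 183.5, 115.3, 150.4 and 90.4 CPM against 42.7, 53.6, 67.9 and 83.2 (0.87 ± 0.25, 0.0366). For each of the 3 genes every old animal lay above every young one. They were picked by their call, and the share of all genes without overlap is not given here, so this only describes them.

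The share in oligodendrocytes was 1.85%, 1.92%, 1.29%, 1.76% and 1.48% in old WT and 1.14%, 0.96%, 1.19% and 1.17% in young WT, again without overlap. The count of calls fell to 1 without old WT replicate 2, without old WT replicate 4 or without young WT replicate 2. Shares over all genes in those fits are not given here. With the term for the range of animal numbers no gene was called and 39 of 49 were positive (median 0.36). In other classes none of these genes was called with age in WT by either tool, though DESeq2 gave no adjusted p for 16 of the 47 in precursors. Of all genes, 0.249% were called in precursors and 0.0% in the other 6 classes. The genes with a positive change were 47 of 50 in astrocytes (median 0.35), 46 of 49 in microglia (0.34) and 33 of 35 in mural cells (0.37). They were 42 of 49 in endothelial cells (0.25), 39 of 46 in interneurons (0.22), 49 of 65 in excitatory neurons (0.13) and 30 of 47 in precursors (0.12). An unadjusted p under 0.05 was held by 9 in astrocytes (370 of 5424 over all genes), 5 in microglia (334 of 4299) and 9 in mural cells (133 of 1337). It was held by 2 in endothelial cells (221 of 3886), 5 in interneurons (137 of 4956), 3 in excitatory neurons (357 of 9228) and 0 in precursors (398 of 4020). In excitatory neurons the term for the range of animal numbers turned the median from 0.13 to -0.08. The oligodendrocytes of old WT held 1144 to 1756 median counts per cell and those of young WT 1765 to 2286. Their astrocyte markers summed to 1848 to 5124 CPM and 1077 to 2035, and their oligodendrocyte markers to 69761 to 127897 and 140332 to 157207. The part of these in the result was not tested.

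Within rTg4510 edgeR called none of these genes with age in any class. In microglia 28 of 49 had an unadjusted p under 0.05 (462 of 4299 over all genes), and DESeq2 called 3 and gave no adjusted p for 17. There 46 of 49 were higher in old than in young rTg4510, with a median of 0.79 (0.02 over all genes, 0.768% of them called). Library size alone moved that median to 0.49 (-0.24 over all genes). The microglial share was 2.95%, 2.17% and 1.57% in the 3 young rTg4510 animals, from 148, 48 and 21 cells, and overlapped with that of the old ones. In oligodendrocytes 41 of 53 were higher (median 0.41, 2.31% of all genes called), and DESeq2 called 1. There 10 of 53 had an unadjusted p under 0.05, against 700 of 5723 over all genes. Astrocytes had 46 of 50 higher (median 0.39, 0.0369% of all genes called). In the other 5 classes 0.0% of all genes were called, and the medians were 0.18 in endothelial cells, 0.06 in excitatory neurons, 0.04 in interneurons, -0.10 in mural cells and -0.15 in precursors.

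Over all cells, the comparison of rTta with old WT was the only one of the 8 in which edgeR called any of these genes. There, 3 of 75 genes were higher in old rTta than in old WT and none lower, where 0.201% of 12414 genes were called (0.0564% higher): Rpl3 (log2 5.72 ± 0.67 SE, adjusted p = 2.80e-04), Rps18 (4.78 ± 0.66, 0.00139) and Rps2 (3.60 ± 0.53, 0.00176). RPL3 lies at the peptidyl transferase centre, RPS18 in the head of the small subunit and RPS2 at the entry of the mRNA channel. edgeR called none of the other 72 genes. Among them was Rps4y2, which read 83.3, 42.0 and 54.3 CPM in rTta, 16.2 to 26.0 in old WT and at most 37.3 in any other animal (1.46 ± 0.32, adjusted p = 0.0723). It was called by DESeq2 (adjusted p = 0.013) and by edgeR with only the groups compared (0.0104). The median over the 75 was -0.13, and over the whole table -0.04.

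Rpl3 read 253.1, 236.8 and 235.6 CPM in the 3 rTta animals and 5.1, 5.1, 2.0, 1.3 and 8.9 in the 5 old WT animals. It read 7.8, 2.8, 2.2 and 6.0 in old rTg4510, 0.7, 3.9, 3.3 and 2.3 in young WT and 3.2, 2.2 and 1.2 in young rTg4510. All 16 WT and rTg4510 animals thus lay under 10 CPM. In P301L, Rpl3 read 3.1, 6.6 and 71.1 CPM, and only replicate 3 stood out.

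Rps2 read 231.8, 276.2 and 274.1 CPM in rTta, 13.2, 35.9, 20.5, 14.8 and 22.9 in old WT and 14.0, 18.5 and 129.9 in P301L. Rps18 read 202.6, 206.8 and 206.7 CPM in rTta, 7.7, 7.7, 4.9, 8.5 and 5.9 in old WT and 11.7, 7.3 and 102.5 in P301L. Across the 11 other animals Rps2 ran from 5.1 to 19.8 CPM and Rps18 from 1.2 to 11.1. Both genes thus repeated the order of Rpl3, with rTta highest, P301L replicate 3 next and all others low.

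P301L replicates 1 and 2 were near the level of WT for these genes, and the cause of the excess in rTta was not tested. In P301L replicate 3, Rpl3 stood at 172.9 CPM in the 176 barcodes shared with rTta replicate 3 and at 27.4 in its other 636 barcodes. Rps2 stood at 277.5 and 66.5 CPM and Rps18 at 259.3 and 35.2 there. For rTta replicate 3 the shared barcodes made no such difference for Rpl3 (229.7 CPM shared, 236.5 not shared). Over all cells P301L against rTta called none of the 75 genes (0.129% of all genes called), and DESeq2 called Rpl3 and Rps2. An unadjusted p under 0.05 was held by 6 of the 75 and by 1304 of 12414 over all genes. Within classes, P301L against rTta gave 11 calls, all of them these 3 genes and all lower in P301L, in astrocytes, endothelial cells, excitatory neurons, microglia, oligodendrocytes and precursors (0.0553%, 0.0257%, 0.0433%, 0.326%, 0.192% and 0.0249% of all genes called lower). A gene could pass the count filter of a class through rTta alone, so these calls are no separate support. Without the shared barcodes Rpl3 (-4.59 ± 0.58, adjusted p = 0.0011), Rps18 (-3.70 ± 0.59, 0.00374) and Rps2 (-3.12 ± 0.50, 0.00399) were all called lower in P301L, and likewise without P301L replicate 3 (-5.59, -4.45 and -3.99). The rTta excess over WT was as large without the shared barcodes (5.72, 4.79 and 3.62). The comparisons of rTta and P301L with WT share the same WT animals, and both also compare the parts of the table.

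**Figure D5:**
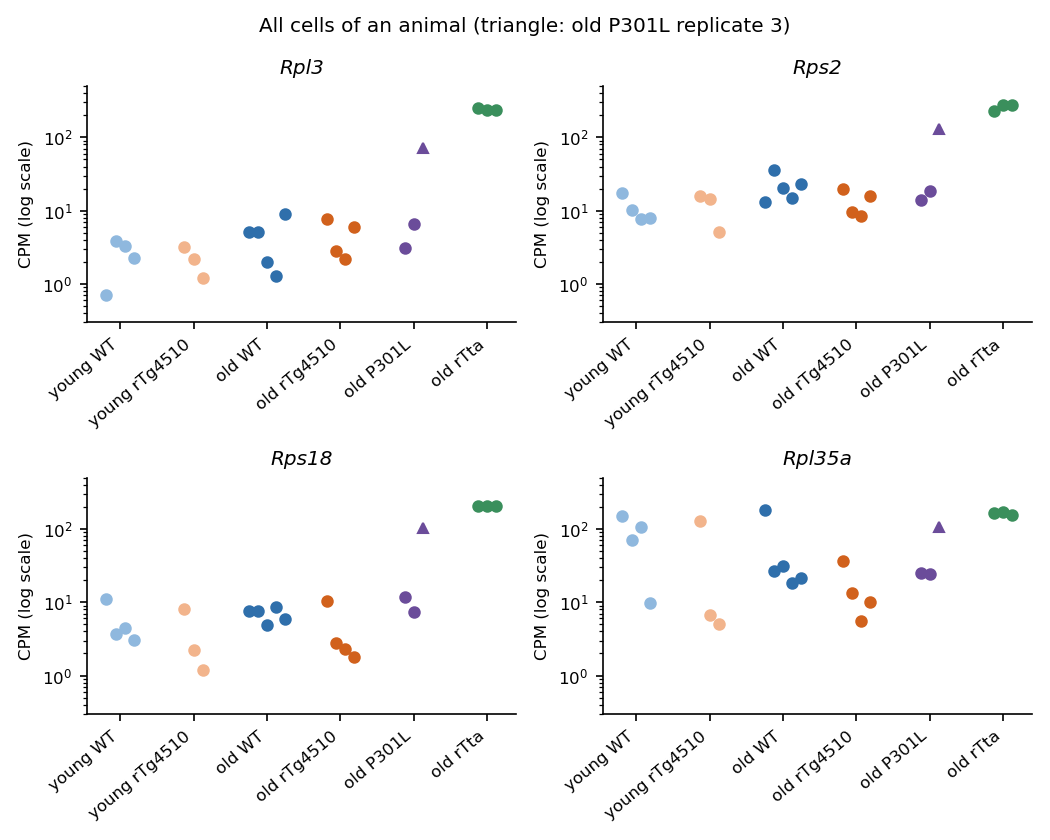
CPM over all cells of an animal (vertical axes, log scale) for Rpl3, Rps2, Rps18 and Rpl35a in the 6 groups, 1 point per animal, with old P301L replicate 3 as a triangle. The 3 rTta animals lie above 200 CPM for Rpl3, Rps2 and Rps18 and P301L replicate 3 lies between them and the rest, while Rpl35a scatters within the WT and rTg4510 groups.

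The excess of these genes in rTta was called in every class tested but mural cells. The count filter keeps a gene that has enough counts in a single group, so a gene could enter these tests through rTta alone. Where old WT held 0 counts only a higher call was possible, so the calls within classes are no separate support. In excitatory neurons, astrocytes, microglia, oligodendrocytes, endothelial cells and oligodendrocyte precursors all 3 were called higher in rTta than in old WT, in interneurons Rpl3 and Rps2 were, where 0.195%, 0.111%, 0.907%, 0.751%, 0.206%, 0.0746% and 0.0404% of all genes were called higher in these 7 classes. In mural cells none of 35 genes was called by edgeR (0.0748% of all genes called) or DESeq2, and 6 had an unadjusted p under 0.05 (145 of 1337 over all genes). Excitatory neurons held 431 Rpl3 counts in rTta and 13 in old WT, a ratio of 44.4 after scaling (exact 95% interval 25.7 to 84.0, counting error only). Astrocytes held 80 and 3 counts (ratio 41.5, 13.7 to 205.3) and oligodendrocytes 150 and 2 (139.6, 38.0 to 1163). Microglia held 134 Rpl3 counts in rTta and 0 in old WT, and endothelial cells 100 and 0, which at a floor of 3 counts over the group makes Rpl3 at least 45.4-fold and at least 53.3-fold higher in rTta. Rps2 was 9.84-fold (5.55 to 19.0) higher in microglia and 13.6-fold (9.87 to 19.3) in excitatory neurons. In mural cells Rps18 had 29 counts and 0, at least 7.14-fold higher.

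Rpl35a, a large-subunit gene with 14 near-identical copies, was chosen for description after its values were seen. It read 180.3, 26.9, 31.2, 18.4 and 21.4 CPM in old WT, 36.4, 13.2, 5.5 and 10.1 in old rTg4510, 147.2, 71.1, 105.6 and 9.7 in young WT and 127.6, 6.6 and 5.1 in young rTg4510. In P301L it read 25, 24.5 and 105.3 CPM and in rTta 166.2, 169.3 and 151.8. Replicate 1 of old WT and of young rTg4510 stood far above the rest of their groups, and edgeR called it in no comparison over all cells (rTta against old WT, log2 1.44 ± 0.96, adjusted p = 0.845). In P301L replicate 3 it stood at 245.7 CPM in the shared barcodes and 45.0 in the others.

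Over all cells, P301L against old WT called none of the 75 genes by edgeR (0.0% of all genes), and DESeq2 called Rps18 and the pseudogene Rps19-ps3. For 8 of the 75 DESeq2 gave no adjusted p. An unadjusted p under 0.05 was held by 11 of the 75, a share close to that over all genes (1839 of 12414). In microglia, P301L against old WT called Rpl13 higher (1.40 ± 0.34, adjusted p = 0.0123), with 942.1, 906.6 and 955.0 CPM in P301L and 337.2, 541.1, 455.8, 305.1 and 325.7 in old WT, where 6.16% of 4299 genes were called (1.35% higher). Rpl13 kept its call without P301L replicate 3 and lost it without P301L replicate 2. Rps18 (4.08 ± 1.01, 0.0123) and Rpl3 (5.26 ± 1.49, 0.0296) were called there too, but neither was without P301L replicate 3 (3.12, adjusted p = 0.101, and 4.57, 0.103). Without the shared barcodes Rpl3 kept its call (4.87, 0.0448) and Rps18 did not (2.92, 0.0987). Behind the Rpl3 call were 2, 3 and 6 counts in the P301L animals and 0 in old WT. Rplp1 was higher in rTta than in old WT microglia (1.14 ± 0.33, adjusted p = 0.04996, 0.907% of all genes called higher), with 2973.2, 3045.5 and 3221.1 CPM against 815.7 to 1908.8, a call lost in 7 of 18 alternatives. Rps4y2 was higher in rTta endothelial cells (2.2 ± 0.49, 0.0322, 0.206% of all genes called higher), with 212.3, 78.3 and 174.2 CPM against 7.0 to 58.6, a call lost in 5 of 17 alternatives.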

How the data were processed

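Drop-seq counts of 22 mouse hippocampi were analysed. The authors deposited 1 table of whole-number counts per gene and barcode. Per the submitters' processing notes, reads were demultiplexed with bcl2fastq 2.18.0.12 and aligned with STAR 2.2 to mm10. The counting tool, the annotation, the use of strand and the collapse of molecular identifiers are not given in the sources used here, so overlapping or antisense genes and copies cannot be separated. A deposited list of barcode sequences served to count shared barcodes.

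Barcodes with at least 300 counts were kept. With scanpy 1.11.5, counts were scaled to 10000 per cell, and 2000 variable genes without the 78 genes, 40 principal components, 15 neighbours and Leiden resolution 1 gave 24 clusters. A cluster was named for a class when at least 3 and at least 25% of its markers were 2-fold above the other cells after adding 20 CPM, details set after the clusters were seen. No doublet caller was run.

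Counts were summed per animal and class (at least 20 cells) and tested with edgeR 4.0.16 (TMM, filterByExpr, robust quasi-likelihood F test, two-sided, Benjamini-Hochberg over all genes tested) in 1 fit of all groups over the 12614 genes counted in both parts of the table. DESeq2 1.42.0 was an alternative, whose calls are given here without the share over all genes. The edgeR test was checked on simulated data. Nothing in the labels says how animals relate beyond their group, so p-values measure the spread between these animals. Copies were searched with BLAST 2.17.0 against GENCODE transcripts, and starts are RefSeq's.

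Genes were named by rule: every called gene of a comparison over all cells up to 8, at most 2 per direction within a class (the further 3 in microglia and 1 in oligodendrocytes, the 3 lowest in microglia and Rpl35a were chosen after their values were seen), the 3 largest contrasts of a class, the stalk genes, Rpl3, Rps2, Rps18, the paralog pairs, the highest and lowest gene, Rps19bp1 and pseudogenes. Not every gene so selected is reported here. The members and lists were chosen with earlier results of these data known.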

Additional observations from a re-analysis of the deposited data

Results flagged for a closer look

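Within groups of 4 or 5 animals, 7 of 75 sets of values tested had 1 animal far from the others by Dixon's criterion, which chance alone meets in about 1 of 20. Over all cells, Rplp0 stood at 320.6 CPM in old rTg4510 replicate 1, against 195.7 to 212.4 in the other 3. Rplp1 stood at 932.4 CPM in young WT replicate 3, against 631.3 to 661.5. Rps18 stood at 10.4 CPM in old rTg4510 replicate 1, against 1.8 to 2.8, and at 11.1 CPM in young WT replicate 1, against 3.1 to 4.4. Rps27l stood at 247.5 CPM in old WT replicate 4, against 90.0 to 122.9. Rpl35a stood at 180.3 CPM in old WT replicate 1, against 18.4 to 31.2. In oligodendrocytes, Rpl37 stood at 709.5 CPM in old WT replicate 2, against 251.1 to 372.8, and its call with age was lost without that animal.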

How the results depend on the processing

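The 3 calls in old rTta against old WT over all cells (Rpl3, Rps2 and Rps18) were kept under all 16 alternatives, with Rps4y2 called besides by DESeq2 and with only the groups compared, and none of the 48 called fold changes turned direction under any alternative; 21 of the 48 kept their call under all of theirs. The interaction, both rTg4510 comparisons with WT and both age comparisons gave 0 calls over all cells under every alternative run. In old P301L against old WT, 0 calls over all cells became 2 with DESeq2 (Rps18 and Rps19-ps3) and 3 with only the groups compared (Rpl11, Rpl13 and Rps19-ps3). In old P301L against old rTta, 0 became 2 with DESeq2, 2 with only the groups compared and 3 without the shared barcodes (an alternative chosen after seeing the data), and ranged from 0 to 3 when animals were left out. Over all classes and comparisons, 45 calls became 79 with no low-count filter, which tests more genes. In microglia, old rTg4510 against old WT, 6 calls became 2 with library size alone, 14 with no low-count filter, 3 at Leiden resolution 0.5, 3 with the range of animal numbers and 3 with only the groups compared, and ranged from 1 to 20 when animals were left out. In oligodendrocytes, old against young WT, 3 calls became 5 with library size alone and 0 with the range of animal numbers, and ranged from 1 to 4 when animals were left out. Between classes, 254 calls became 123 in the 5 old WT animals, which are fewer samples. The share in rTta, 1.73%, became 1.99% as a mean over cells. Where the construction does not show it, the cause was not tested. Counts of calls under the alternatives are given without the share over all genes.

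No paired analysis was possible because the replicate numbers only name animals in accession order and tie no animals across groups. Low counts limit the tests: 24 of the 75 counted in both parts had too few counts for the contrasts between classes. A missing call for them therefore does not show that a difference was absent, and why their counts were low was not tested.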

Other observations

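The shares in clusters outside the tested classes ran widely. Of the unnamed ones, a cluster of 1498 cells whose leading genes included the noncoding RNAs Kcnq1ot1, Meg3 and Miat gave 1.04% ± 0.478 (SD, n = 18 animals) of its counts to the 78 genes. A cluster of 2171 cells with a median of 458 counts per cell, led by Shq1, Kif5a, Camk2a and Ddn, gave 2.58% ± 0.518 (n = 16). One of 157 cells gave a mean of 0.646% (n = 2) and one of 254 cells 2.35% ± 0.418 (n = 3). Among the named ones, the 150 cells with markers of immature neurons or progenitors, led by cell division genes such as Cenpf and Prc1, gave 3.95% in the 1 animal with at least 20 of them, and cells with choroid plexus markers gave 1.82% ± 0.292 (n = 5).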
